A study of Mus musculus with 4 samples.

Results

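The interleukin-1 family is a group of inflammatory cytokines and the receptors that bind them, and 10 of its genes were followed in colon epithelial isolates: the ligands Il1a, Il1b, Il18 and Il33, the antagonist Il1rn, and the receptors Il1r1, Il1r2, Il1rap, Il1rl1 and Il18r1. They were chosen by symbol in the platform's probe annotation, using probe sets with 1 symbol and the brightest set of a gene. Of the 10 genes 8 had such a probe set, among 19938 genes in all, and Il1r1 and Il1rl1 were not analysed here. Of these 8, 7 read at least 6 on the log2 scale on the highest array, the floor used for all genes, which left 12526 genes. These 7 genes were above that floor on every array, with a lowest value of 6.86, so none passed it through 1 genotype alone. Il18r1 lay below it on all 4 arrays. Each of the 8 genes had 1 probe set.

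The arrays came from C57BL/6 mice, 6 to 8 weeks old and sex-matched, in a colitis-associated cancer model. All mice, WT included, received 10 mg/kg of azoxymethane, a colon carcinogen, and 5 days later 3.5% dextran sulfate sodium, which injures the colon lining, for 5 days. On day 12 the epithelium was released from the opened colon with EDTA, without a sort. The groups were DKO (labelled Bmi1ΔIEC Mel18ΔIEC), Bmi1ΔIEC, Mel18ΔIEC and WT, with 1 array each. Bmi1 and Mel18 (gene symbol Pcgf2) encode related subunits of a Polycomb repressive complex. The labels used here name neither the driver of the epithelial deletions nor how many mice stand behind an array.

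Interleukin-1 alpha and beta activate the same receptor, which signals together with the accessory chain encoded by Il1rap. The antagonist encoded by Il1rn occupies that receptor without activating it, and the decoy encoded by Il1r2 binds the ligands but carries no signalling domain. Interleukin-33 signals through the receptor encoded by Il1rl1 and the same accessory chain, and interleukin-18 through the receptor encoded by Il18r1 and its partner Il18rap. Myeloid cells are a main source of interleukin-1 beta in the inflamed colon, whereas interleukin-18 is also made by the colon epithelium.

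The start regions of Il1a, Il1b and Il1r2 are shown because these genes shared 1 order over the arrays and stood at least 2-fold apart between the single deletions, and both start regions of Il33 because it was also high on DKO but differed less between the single deletions. Each sequence is a RefSeq promoter window (build GRCm38.p6) of 250 bases before and 50 bases after an annotated transcript start, written from 5′ to 3′ on the gene's strand. Capitals mark matches, on either strand, to a TATA box (TATAAA), an AP-1 motif (TGANTCA), a C/EBP motif (TTGCNNAA) or an NF-kB motif (GGGA, any 4 bases, CC), and no matches overlapped in the windows shown.
Il1a, chr2:129309923-129310222, minus strand: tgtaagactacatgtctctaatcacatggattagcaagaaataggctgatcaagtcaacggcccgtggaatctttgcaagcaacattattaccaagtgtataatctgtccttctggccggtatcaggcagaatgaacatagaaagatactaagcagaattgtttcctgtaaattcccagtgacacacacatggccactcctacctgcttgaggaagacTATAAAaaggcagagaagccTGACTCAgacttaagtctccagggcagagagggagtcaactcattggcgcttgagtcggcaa
Il1b, chr2:129371090-129371389, minus strand: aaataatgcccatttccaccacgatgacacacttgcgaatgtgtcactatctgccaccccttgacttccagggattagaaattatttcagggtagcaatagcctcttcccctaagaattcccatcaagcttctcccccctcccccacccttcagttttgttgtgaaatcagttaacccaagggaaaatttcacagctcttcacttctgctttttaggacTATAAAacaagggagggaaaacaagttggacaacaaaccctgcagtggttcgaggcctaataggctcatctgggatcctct
Il1r2, chr1:40085843-40086142, plus strand: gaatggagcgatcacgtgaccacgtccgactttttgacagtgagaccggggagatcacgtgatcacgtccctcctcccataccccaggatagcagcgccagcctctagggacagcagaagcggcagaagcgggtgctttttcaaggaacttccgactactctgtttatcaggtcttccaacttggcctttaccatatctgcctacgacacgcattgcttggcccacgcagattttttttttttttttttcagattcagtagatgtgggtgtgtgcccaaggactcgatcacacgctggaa
Il33 first start, chr19:29924863-29925162, plus strand: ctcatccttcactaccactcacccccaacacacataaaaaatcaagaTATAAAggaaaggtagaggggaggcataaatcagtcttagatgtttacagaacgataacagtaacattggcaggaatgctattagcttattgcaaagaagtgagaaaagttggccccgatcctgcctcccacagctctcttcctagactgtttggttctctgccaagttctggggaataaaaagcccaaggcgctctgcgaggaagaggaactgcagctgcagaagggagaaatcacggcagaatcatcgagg
Il33 second start, chr19:29945540-29945839, plus strand: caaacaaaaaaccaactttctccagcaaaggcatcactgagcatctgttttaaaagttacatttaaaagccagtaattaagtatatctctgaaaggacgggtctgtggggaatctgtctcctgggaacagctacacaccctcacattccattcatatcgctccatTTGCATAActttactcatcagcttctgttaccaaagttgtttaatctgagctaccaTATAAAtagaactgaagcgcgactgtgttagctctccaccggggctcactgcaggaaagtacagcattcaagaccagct
Il1a held an AP-1 match that begins 12 bases before the start and a TATA match 32 bases before it. Il1b held a TATA match 31 bases before its start, and Il1r2 held no match to any of the 4 motifs. The second Il33 window held a TATA match 29 bases before the start and a C/EBP match 85 bases before it, and the first a TATA match 203 bases before the start. Among 32851 windows of the same length, 13.6% held the TATA motif, 7.81% the AP-1 motif, 10.8% the C/EBP motif and 20.7% the NF-kB motif. In the other windows of the 8 genes, NF-kB matches stood in Il1rn and in Il1rap. An AP-1 match also stood in Il1rn, and TATA matches stood in Il1rn and in Il18. A match describes these letters only, and the lack of one says only that the letters are not in this window.

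Some facts of the whole set bear on every value. Array medians lay between 67.04 and 72.96 in intensity units over 35556 probe sets. Bmi1 read 7.64 on DKO, 7.43 on Bmi1ΔIEC, 6.999 on Mel18ΔIEC and 7.25 on WT in log2 intensity, and Pcgf2 read 6.81, 6.72, 6.84 and 6.96 on the same arrays. The labels do not name the deleted exons, so neither gene checks the genotypes. DKO stood apart, with Pearson correlations of 0.878 to 0.906 with the other arrays across 12526 genes, against 0.978 to 0.982 among the others. On WT, 11 of 12 seminal vesicle genes read at least 2-fold above each deletion array, a list first written with these data known. These 11 genes lay below the floor on some array, and all but Svs2 and Svs5 passed it through WT alone. Among all analysed genes, WT exceeded DKO by 2-fold or more for 8.19%, Bmi1ΔIEC for 0.359% and Mel18ΔIEC for 0.814%. Because of the seminal vesicle genes, WT values are given beside a comparison that leaves WT out. With 1 array per genotype no difference has a replicate check, none was tested, and no neighbours in an order of levels can be shown to differ beyond their spread. In bulk RNA, fewer cells of a type and less RNA per cell cannot be told apart.

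Among the agonists, Il1a had the widest range. Il1a (probe set 10487588), which encodes an alarm cytokine held in cells and released on damage, read 11.64 on DKO, 10.30 on Bmi1ΔIEC, 7.07 on Mel18ΔIEC and 8.76 on WT in log2 intensity. DKO was highest and Mel18ΔIEC lowest, 4.58 apart. Against WT the log2 difference was 2.89 on DKO (7.40-fold higher), 1.54 on Bmi1ΔIEC (2.90-fold higher) and -1.69 on Mel18ΔIEC (3.23-fold lower).

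Il1b (probe set 10487597), the inducible agonist that is cut to its active form by caspase-1, followed the same order. It read 12.28 on DKO, 11.16 on Bmi1ΔIEC, 8.91 on Mel18ΔIEC and 10.42 on WT. Its log2 difference from WT was 1.86 on DKO (3.64-fold higher), 0.74 on Bmi1ΔIEC (1.67-fold higher) and -1.51 on Mel18ΔIEC (2.84-fold lower). Il1bos, a non-coding gene that overlaps Il1b in RefSeq and was looked up after these values were seen, read between 4.09 and 4.61 on the 4 arrays, below the floor.

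Il33 (probe set 10462442), which encodes a nuclear alarm cytokine of barrier and stromal cells, was high on DKO and close together on the 3 other arrays. It read 10.09 on DKO, 7.79 on Bmi1ΔIEC, 7.20 on Mel18ΔIEC and 7.43 on WT. DKO exceeded WT by 2.66 (6.32-fold), whereas Bmi1ΔIEC and Mel18ΔIEC differed from WT by 0.36 and -0.23. Il18 (probe set 10585194), whose product acts on lymphocytes and is also made by epithelium, was nearly level. It read 10.47 on DKO, 9.92 on Bmi1ΔIEC, 10.44 on Mel18ΔIEC and 10.29 on WT, with differences from WT of 0.18, -0.37 and 0.16. It was also the gene for which Bmi1ΔIEC, not Mel18ΔIEC, gave the lowest value.

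The antagonist Il1rn (probe set 10469816) read 11.58 on DKO, 10.26 on Bmi1ΔIEC, 9.66 on Mel18ΔIEC and 10.14 on WT. It was 2.72-fold higher on DKO than on WT (1.44), and the single deletions lay within 1.5-fold of WT (0.12 and -0.48). It kept the order of the agonists Il1a and Il1b with smaller differences: Il1b differed from WT by 1.86 on DKO and -1.51 on Mel18ΔIEC.

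The decoy receptor Il1r2 (probe set 10345752) separated the single deletions most widely. It read 10.64 on DKO, 10.38 on Bmi1ΔIEC, 6.86 on Mel18ΔIEC and 7.96 on WT. DKO and Bmi1ΔIEC differed from each other by 0.26, and both were far above WT, by 2.67 (6.37-fold) and 2.41 (5.33-fold). Mel18ΔIEC was 2.16-fold below WT (-1.11).

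The accessory chain Il1rap (probe set 10434845) read 8.27 on DKO, 7.47 on Bmi1ΔIEC, 7.37 on Mel18ΔIEC and 7.57 on WT. It was 1.62-fold higher on DKO than on WT (0.70), and the single deletions were within 0.21 of WT. Il18r1 (probe set 10345807), the ligand-binding chain for interleukin-18, read 5.18 on DKO, 4.64 on Bmi1ΔIEC, 4.60 on Mel18ΔIEC and 4.26 on WT, near background, so its differences are rough.

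**Figure D1:**
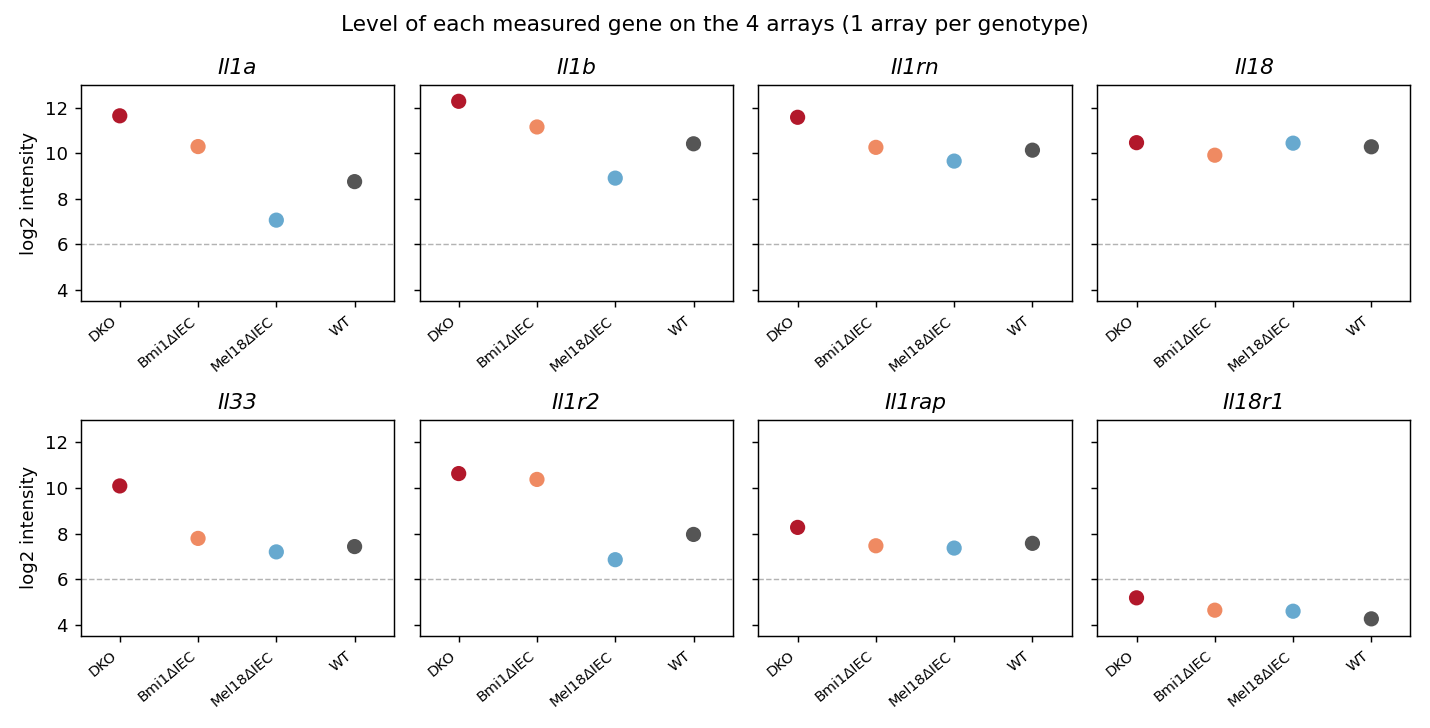
Log2 intensity (y axis) of the 8 measured interleukin-1 family genes on the DKO, Bmi1ΔIEC, Mel18ΔIEC and WT arrays (x axis); each point is 1 array, and the dashed line is the floor of 6. All 8 genes were highest on DKO, and 6 of them were lowest on Mel18ΔIEC. Il18 stayed between 9.92 and 10.47, with DKO only 0.02 above Mel18ΔIEC, and Il18r1 lay below the floor on every array. The share of all analysed genes that were highest on DKO or lowest on Mel18ΔIEC was not counted, so these counts only describe the plot.

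The comparison of DKO with WT asks which transcripts differed when both genes were deleted. Of the 7 genes analysed 5 were at least 2-fold higher on DKO (Il1a, Il1b, Il1rn, Il33 and Il1r2), where 7.33% of all analysed genes were. None was at least 2-fold lower, against 8.19% of all analysed genes. The median of the 7 differences was 1.86, and that of all genes -0.05. DKO differed from WT widely in general: the central 95 percent of all genes ran from -1.44 to 1.81 and their scaled median absolute deviation was 0.57. Il1a exceeded 99.7% of analysed genes in this difference and Il1rn 95.9%.

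Without WT, DKO was set against the mean of Bmi1ΔIEC and Mel18ΔIEC, and both comparisons share the DKO array. The same 5 of 7 genes were at least 2-fold higher, at 2.96 for Il1a, 2.60 for Il33, 2.25 for Il1b, 2.02 for Il1r2 and 1.62 for Il1rn, where 7.33% of all analysed genes were. None was 2-fold lower, against 6.51% of all genes. The median of the 7 was 2.02 and that of all genes -0.07. For Il1r2 this mean joins distant values, since DKO exceeded Bmi1ΔIEC by 0.26 and Mel18ΔIEC by 3.78. For Il33 both single deletions gave a similar value, 2.30 and 2.89.

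For Bmi1ΔIEC against WT, 2 of 7 genes were at least 2-fold higher, Il1r2 and Il1a, where 0.551% of all analysed genes were. None was 2-fold lower, against 0.359% of all genes. Il1r2 exceeded 99.97% of analysed genes in this difference. The 7 genes had a median of 0.36 and all genes one of -0.02, with a scaled median absolute deviation of 0.19.

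For Mel18ΔIEC against WT, 3 of 7 genes were at least 2-fold lower, Il1a, Il1b and Il1r2, where 0.814% of all analysed genes were. None was 2-fold higher, against 0.144% of all genes. The median of the 7 was -0.48, and that of all genes was 0.005. The comparisons of the deletion arrays with WT share the WT array, so a value read low or high on WT moves all 3 of them.

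Bmi1ΔIEC against Mel18ΔIEC shares no array with DKO against WT. Il1r2 was 11.5-fold higher on Bmi1ΔIEC (3.52), Il1a 9.37-fold higher (3.23) and Il1b 4.74-fold higher (2.24). These 3 of 7 genes were past 2-fold, where 1.53% of all analysed genes were, and none was 2-fold lower, against 0.224% of all genes. Il1rn (0.60), Il33 (0.59) and Il1rap (0.10) differed by less, and Il18 was lower on Bmi1ΔIEC (-0.53). The median of the 7 was 0.60 and that of all genes -0.03.

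**Figure D2:**
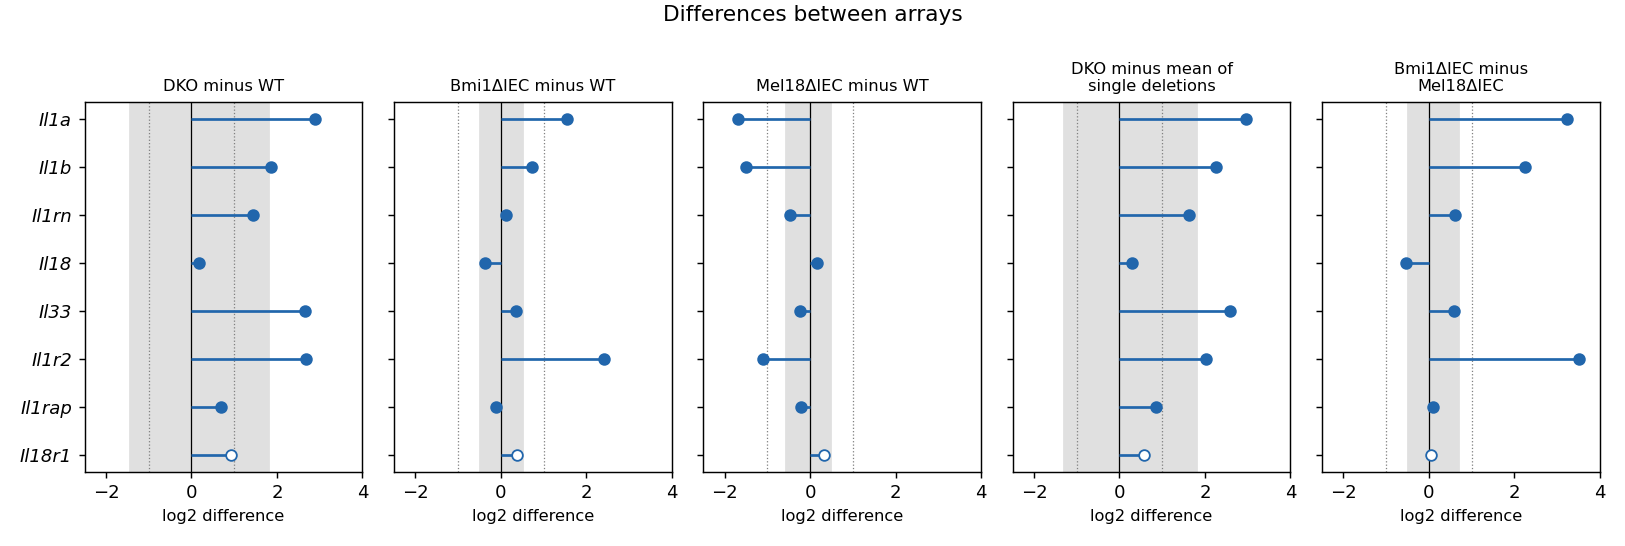
Log2 difference (x axis) of the 8 measured genes (y axis) in each of the 5 comparisons; dotted lines mark 2-fold, the grey band holds the central 95 percent of the 12526 analysed genes, and the open point is Il18r1, which lay below the floor. Il1a, Il1b and Il1r2 lie outside the band in every panel, and Il18 lies inside it in 4 of 5.

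The counts in the gene lists that follow stand beside the shares of all analysed genes at least 2-fold higher and lower. These were 7.33% and 8.19% on DKO against WT, and 7.33% and 6.51% on DKO against the mean of the single deletions. On Bmi1ΔIEC against Mel18ΔIEC they were 1.53% and 0.224%. Against WT they were 0.551% and 0.359% on Bmi1ΔIEC, and 0.144% and 0.814% on Mel18ΔIEC. A gene that lay below the floor on some array had passed it through the others, so the calls such genes make are counted apart. Other members of the family gave 1 further gene with a wide range. Il1f9, the older symbol of the epithelial alarm cytokine interleukin-36 gamma, read 10.50 on DKO, 8.31 on Bmi1ΔIEC, 6.10 on Mel18ΔIEC and 7.32 on WT, the same order as Il1a and Il1b. Its difference from WT was 3.18 on DKO, 0.99 on Bmi1ΔIEC and -1.22 on Mel18ΔIEC. DKO exceeded the mean of the single deletions by 3.29. The other 4 ligands of this list (Il1f5, Il1f6, Il1f8 and Il1f10) read below the floor on all arrays, up to 5.62. Il1rn, Il1f9 and these genes lie on the same stretch of chromosome 2 in RefSeq. There Il1f9 had a wide range, Il1rn one of 1.92, and the other ligands lay below the floor.

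The receptor genes Il1r2, Il1r1, Il1rl2, Il1rl1, Il18r1 and Il18rap also lie on the same stretch of a chromosome, chromosome 1. Those measured differed from each other. Il1r2 had a range of 3.78 over the arrays. Il1rl2 of the same stretch, the receptor for the interleukin-36 ligands, read 5.45 on DKO, 6.00 on Bmi1ΔIEC, 5.96 on Mel18ΔIEC and 6.36 on WT. DKO and WT differed by -0.90. Il1rl2 lay below the floor on DKO and Mel18ΔIEC and close to it on the others, so this difference is rough. Il18rap, the signalling partner of Il18r1, read 7.12 on DKO, 6.17 on Bmi1ΔIEC, 5.54 on Mel18ΔIEC and 5.57 on WT, 1.56 higher on DKO than on WT. The list of other receptors and binding proteins had 4 analysed genes, Il18rap, Il1rl2, Sigirr and Il18bp. Of these Il18rap alone was past 2-fold on DKO against WT, and also against the mean of the single deletions (1.27). The inhibitory receptor Sigirr (-0.04) and the binding protein Il18bp (0.45), which holds interleukin-18 away from its receptor, differed little.

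Among inflammasome and processing genes, which sense damage and cut interleukin-1 beta and interleukin-18 to active forms, 4 of 15 stood at least 2-fold above WT on DKO and 0 below it (median 0.51). The 4 were sensors: Nlrp3 (2.06), Mefv (1.98), Nlrp1b (1.23) and Nlrc4 (1.18). The protease Casp1 (0.38) and the pore protein Gsdmd (0.60) differed by less, and the adaptor Pycard (-0.59) and the colonic sensor Nlrp6 (-0.63) had negative differences. Nlrp3 read 7.95 on DKO, 6.60 on Bmi1ΔIEC, 5.25 on Mel18ΔIEC and 5.88 on WT, the same order as Il1b. Nlrp3 and Mefv, 2 of the 4 called, lay below the floor on some array, as did Il18rap. Against the mean of the single deletions 4 of 15 were higher on DKO and 1 was lower, Nlrp6 (-1.17). The 4 higher were Nlrp3 (2.02), Mefv (1.96), Nlrc4 (1.06) and Casp4 (1.03), while Nlrp1b gave 0.79. Between Bmi1ΔIEC and Mel18ΔIEC, Nlrp3 (1.36) and Mefv (1.33) were the 2 of 15 past 2-fold and the median was -0.01.

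Receptor signalling genes gave fewer calls, and their number moved with the array set against DKO. On DKO 2 of 17 analysed genes stood at least 2-fold above WT and 0 below it (median 0.37). These were Irak3 (2.02), a kinase-like brake on the pathway in myeloid cells, and the kinase Map3k8 (1.38), followed by Rel (0.998), Peli1 (0.94) and Irak2 (0.91). Against the mean of the single deletions 4 of 17 were past 2-fold, Irak3 (1.94), Map3k8 (1.51), Rel (1.20) and Peli1 (1.09), with a median of 0.38. Irak3 read 9.60 on DKO, 8.38 on Bmi1ΔIEC, 6.93 on Mel18ΔIEC and 7.58 on WT. The adaptor Myd88 gave 0.37. Between Bmi1ΔIEC and Mel18ΔIEC, Irak3 (1.45) was the 1 gene of 17 past 2-fold, and the median was 0.01.

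Genes that interleukin-1 is known to induce were higher on DKO. On that array 15 of 19 analysed target genes stood at least 2-fold above WT and 0 below it (median 1.29), and against the mean of the single deletions 12 of 19 did (median 1.09). Of the 15, Il6, Vcam1 and Csf3 lay below the floor on some array, and Il6 and Vcam1 passed it through DKO alone. The 15 included the cytokine Il6 (2.97), the neutrophil chemokine Cxcl2 (2.42), the iron-binding protein Lcn2 (1.90), the prostaglandin synthase Ptgs2 (1.88) and Tnf (1.71). Cxcl2 read 12.10 on DKO, 11.33 on Bmi1ΔIEC, 8.37 on Mel18ΔIEC and 9.69 on WT, in the order of Il1a and Il1r2. Il6 read 7.35 on DKO, 5.02 on Bmi1ΔIEC, 3.68 on Mel18ΔIEC and 4.38 on WT, and passed the floor through DKO alone. Other pathways induce these genes too. On Bmi1ΔIEC 1 of 19 was past 2-fold above WT, Cxcl2 (1.64). On Mel18ΔIEC 4 of 19 were at least 2-fold below WT: Saa3 (-2.69), Lcn2 (-2.20), Ptgs2 (-1.87) and Cxcl2 (-1.32). Between Bmi1ΔIEC and Mel18ΔIEC, 5 of 19 were higher, led by Saa3 (3.37) and Lcn2 (3.20), and Cxcl5 was lower (-1.15). Saa3 and Cxcl5 were named after their values were seen.

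**Figure D3:**
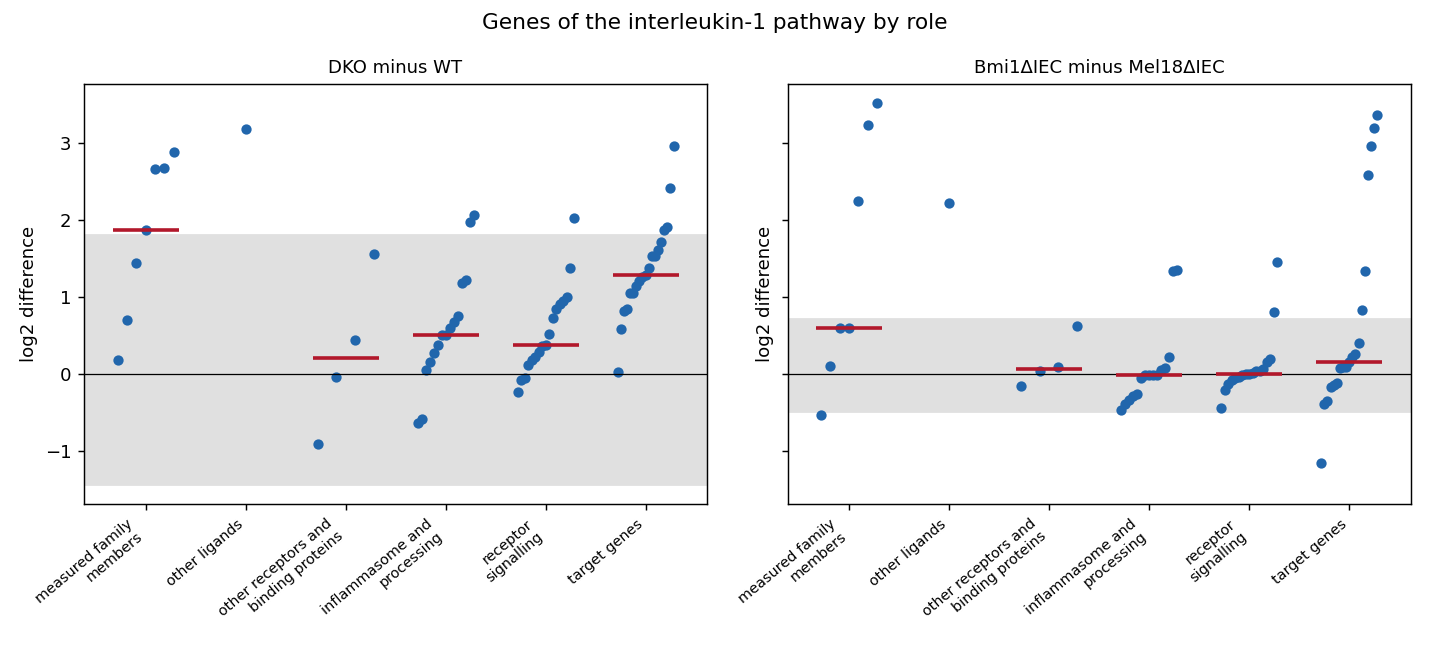
Log2 difference (y axis) of the analysed genes of each role (x axis) for DKO minus WT (left) and Bmi1ΔIEC minus Mel18ΔIEC (right); each point is 1 gene, red lines are list medians, and the grey band holds the central 95 percent of analysed genes. Target genes lie mostly above 1 on the left (median 1.29), while their median on the right is 0.16 with a few genes above 2.

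Markers of some other cell types were also higher on DKO, and the background shares for the counts of all cell type lists are those given for the pathway lists. In the neutrophil list 12 of 14 analysed genes were at least 2-fold higher on DKO than on WT (median 2.15), led by Hcar2 (2.995), Ngp (2.93) and Clec4d (2.74), and 12 of 14 were higher against the mean of the single deletions (median 2.23). These 3 genes and Mmp8, 4 of the 12, lay below the floor on some array. On Bmi1ΔIEC 7 of 14 were higher than on WT (median 1.07), where 0.551% of all analysed genes were. On Mel18ΔIEC 9 of 14 were lower than on WT (median -1.17), where 0.814% of all analysed genes were. Between Bmi1ΔIEC and Mel18ΔIEC 11 of 14 were higher (median 2.28), beside 2.24 for Il1b, 3.23 for Il1a and 3.52 for Il1r2. The summed intensity of the 15 listed genes was 32066 on DKO, 19935 on Bmi1ΔIEC, 9169 on Mel18ΔIEC and 13298 on WT. Ly6g, a defining neutrophil marker, differed by at most 0.18 from WT and alone gave 7073 on DKO, 6677 on Bmi1ΔIEC, 7053 on Mel18ΔIEC and 7538 on WT, most of the sum on the last 2 arrays. Without it the other 14 genes summed to 24992 on DKO, 13259 on Bmi1ΔIEC, 2116 on Mel18ΔIEC and 5760 on WT. Stfa3 lay below the floor. The part of neutrophils in the values of Il1a, Il1b and Il1r2 was not tested.

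Mononuclear phagocyte genes were high on DKO and differed less, as a list, among the other arrays. Of 14 genes 12 were at least 2-fold higher on DKO than on WT (median 2.04), led by Itgam (2.30), Fcgr1 (2.28) and C1qb (2.26), against 1 on Bmi1ΔIEC (median 0.19) and 0 lower on Mel18ΔIEC (median -0.33). Against the mean of the single deletions 12 of 14 were higher (median 2.09). Of the 12 against WT, Adgre1, Ccr2 and Ms4a7 lay below the floor on some array, and Adgre1 and Ms4a7 passed it through DKO alone. Between Bmi1ΔIEC and Mel18ΔIEC 2 of 14 were past 2-fold, Itgam (1.94) and Lyz2 (1.25), with a median of 0.45. Their summed intensity was 12993 on DKO, 4999 on Bmi1ΔIEC, 2936 on Mel18ΔIEC and 3933 on WT. Il33, with 2.66, 0.36 and -0.23 in the same 3 differences, lay nearer to these values than to the neutrophil medians. Fibroblast genes gave 3 of 10 past 2-fold on DKO against WT (median 0.78), led by Pdpn (1.82), Dcn (1.68) and Dpt (1.13, above the floor on DKO alone). Against the mean of the single deletions 3 of 10 were also past it (median 0.64), and the list had a summed intensity of 3763 on DKO, 2423 on Bmi1ΔIEC, 1526 on Mel18ΔIEC and 1721 on WT. Endothelial genes gave 5 of 11 against WT (median 0.98), led by Cd93 (2.14), Pecam1 (1.74) and Emcn (1.20), and 3 of 11 against the mean of the single deletions (median 0.79). Pecam1 and Emcn lay below the floor on some array, and Emcn passed it through DKO alone. The endothelial list gave sums of 1866, 1025, 752 and 823 on those 4 arrays. The part of these cells in the Il33 values was not tested.

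Lymphoid and mast cell markers, the cells known to carry the interleukin-33 and interleukin-18 receptors, differed less as lists. Of 9 lymphoid genes 3 were past 2-fold on DKO against WT, Gata3 (2.57), Il7r (2.26) and Cd3g (1.28), and all 3 lay below the floor on some array. Against the mean of the single deletions 3 of 9 were past it too (median 0.42). The median against WT was 0.49, with sums of 1576 on DKO, 845 on Bmi1ΔIEC, 746 on Mel18ΔIEC and 733 on WT. Of 12 mast cell genes 6 lay below the floor, among them Cpa3, Fcer1a and Ms4a2. Of the other 6, Hdc was higher on DKO than on WT (2.27) and Cma1 lower (-1.26), and Mcpt1 gave -0.60. Cma1 lay below the floor on DKO and Bmi1ΔIEC. Against the mean of the single deletions 1 was higher, Hdc (2.56), and 1 lower, Mcpt1 (-1.38). The mast cell list summed to 2834 on DKO, 2491 on Bmi1ΔIEC, 1624 on Mel18ΔIEC and 1509 on WT. Most of the sum on DKO came from Hdc, which read 10.79 there, 9.21 on Bmi1ΔIEC, 7.25 on Mel18ΔIEC and 8.52 on WT in log2 intensity. The list median for DKO against WT was -0.07, so these sums do not describe the list as a whole. Epithelial markers, which define the labelled cell type, were bright and level on all arrays, with 1 of 14 past 2-fold on DKO against WT (Cldn4, 1.21), Krt20 at 0.52, Cdx2 at -0.42 and a median of 0.18. Against the mean of the single deletions 1 of 14 was past it (median 0.03). The epithelial list had sums of 61495 on DKO, 58058 on Bmi1ΔIEC, 59144 on Mel18ΔIEC and 55078 on WT.

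**Figure D4:**
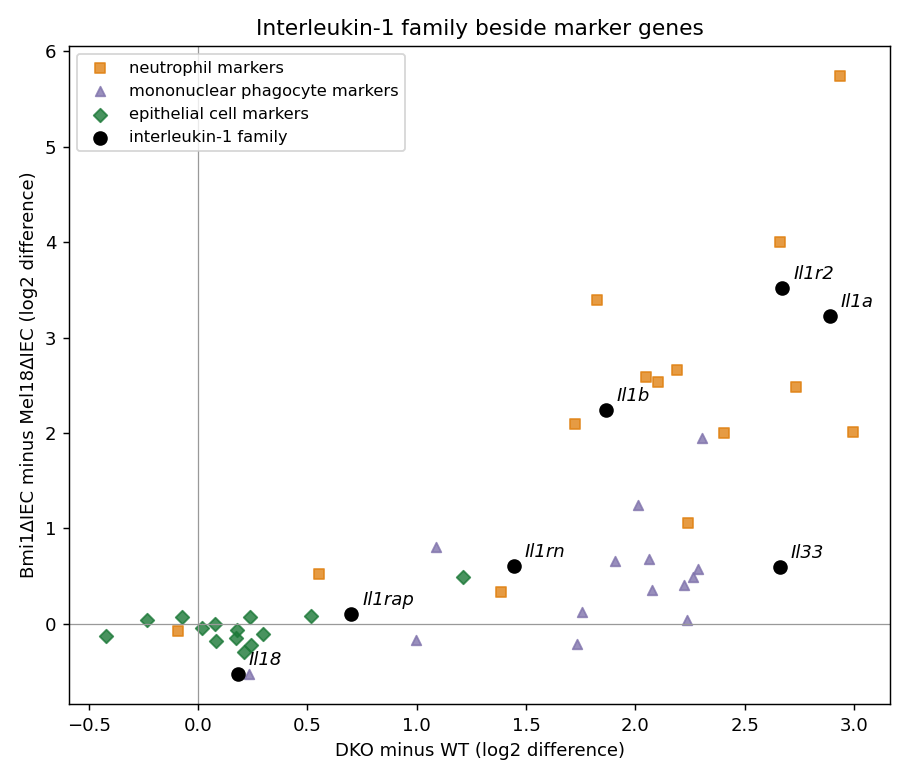
Log2 difference of DKO minus WT (x axis) against Bmi1ΔIEC minus Mel18ΔIEC (y axis), 2 differences with no array in common, for 7 interleukin-1 family genes (black, named) and marker genes of 3 cell types; each point is 1 gene. Il1a, Il1b and Il1r2 lie with the neutrophil markers high on both axes. Il33 (2.66 and 0.59) lies to the right of the mononuclear phagocyte markers, and Il18 (0.18 and -0.53) lies just below the epithelial markers. Lymphoid, mast cell, fibroblast and endothelial markers are not plotted. Gata3 of the lymphoid list (2.57 and 0.21) would also lie near Il33.

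For genes with a log2 range of at least 2, the 3 genes nearest in pattern were found by the Euclidean distance of log2 values centred on their mean, over 4 arrays. Nearest to Il1b were Gpr84 (distance 0.0999), Igsf6 (0.11) and Fcer1g (0.16), genes of myeloid cells. Nearest to Il1a were Clec4d (0.55), Asprv1 (0.59) and Lilr4b (0.59), and nearest to Il1r2 were Alox5ap (0.55), Cxcl2 (0.57) and Tlr13 (0.74). Nearest to Il33 were Cd69 (0.06), Stap1 (0.08) and Gpx3 (0.12). Cd69 and Stap1 passed the floor through DKO alone and were near background on the other arrays. Clec4d and Tlr13 lay below the floor on Mel18ΔIEC. With 4 arrays many genes share such a pattern, and the distance is a description.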

How the data were processed

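Colon epithelial isolates of 4 genotypes were measured on Affymetrix Mouse Gene 1.0 ST arrays, 1 array each. The authors deposited linear intensities per probe set, which the submitters' processing notes credit to RMA in Affymetrix Expression Console, with no version. RMA corrects background and gives all arrays 1 distribution before it summarises probes, so a shift common to most genes is taken out. The number of arrays limits the precision.

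Of 35556 probe sets 21789 carried 1 symbol and 1621 carried several, while 12146 are unnamed here. The brightest set by mean log2 intensity stood for a gene, and a gene was analysed if its highest array reached a log2 intensity of 6. Older symbols were matched through RefSeq synonyms. Differences were taken on the log2 scale, and members past 2-fold were counted beside all analysed genes past 2-fold. Promoter windows were read from RefSeq tables (GRCm38.p6). The named genes were Bmi1, Pcgf2, the members, up to 5 genes of each pathway list and 3 of each cell type list with the largest DKO minus WT difference, and the nearest patterns; any other gene named, such as Casp1, Gsdmd, Myd88, Ly6g, Pycard and Nlrp6, was chosen after its values were seen. Members and lists were chosen with earlier results of these data known. The counting was tested on simulated data. Analyses used Python 3.11.15, numpy 2.4.6, pandas 2.3.3, matplotlib 3.10.9, R 4.3.3 and limma 3.58.1 (cyclic loess).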

Additional observations from a re-analysis of the deposited data

Results flagged for a closer look

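Each single deletion can be read in 2 backgrounds, with the other gene intact or deleted, and some genes lay on opposite sides in these. The differences between the backgrounds were not tested, since each rests on 1 array per genotype, and for loss of 1 gene or the other the difference of the differences is the same number. With loss of Mel18, Il1a differed by 1.35 on DKO against Bmi1ΔIEC and by -1.69 on Mel18ΔIEC against WT, which are 3.04 apart. Il1b gave 1.13 and -1.51 in these comparisons, 2.63 apart. For Il33 the values were 2.30 and -0.23, 2.54 apart. Il1rn gave 1.32 and -0.48, 1.80 apart, and Il1r2 gave 0.26 and -1.11, 1.37 apart. Il1rap gave 0.81 and -0.21 with loss of Mel18, and 0.91 and -0.11 with loss of Bmi1 (DKO against Mel18ΔIEC, and Bmi1ΔIEC against WT), 1.01 apart in both. Il18 gave 0.02 and -0.37 with loss of Bmi1, 0.39 apart.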

How the results depend on the processing

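Other settings were median centring, cyclic loess, log2 of the intensity plus 32, 1.5-fold as the threshold, dim genes kept, the floor raised to 8, and probe sets of a gene averaged. A shift of each array by its epithelial markers, and DKO against each single deletion alone, were added after seeing the data. Of 84 counts of members under these, 83 lay within 1.5 times the value reported or at the same 0. At 1.5-fold, 5 in place of 3 members were higher on Bmi1ΔIEC than on Mel18ΔIEC. Of 280 single differences 278 kept their side of 2-fold and none past 2-fold changed direction. Keeping dim genes, raising the floor or averaging probe sets could not change any of these. Filters leave the values untouched, and each gene had 1 probe set. Such changes therefore give no check of the single differences. Averaging could not change the counts of members either, and the floor of 8 did not, since all analysed members reached 8 on DKO. Il1r2 on Mel18ΔIEC against WT gave -0.93 with log2 of the intensity plus 32, and Il18r1 on DKO against WT gave 1.06 after median centring. Il1a on DKO against WT ran from 2.77 to 3.05 over these settings. The balance of all genes moved: 47.2% of the genes past 2-fold on DKO against WT were higher as reported, 60.7% after median centring, which moved the median of all genes by 0.14, and 36.7% after the epithelial shift, which moved it by -0.12. On DKO against the mean of the single deletions these shares were 52.9% as reported, 65.9% after median centring (a shift of 0.12) and 65.4% after cyclic loess, and on Mel18ΔIEC against WT the epithelial shift moved the median by -0.11. The 5 members past 2-fold on DKO against WT stayed past it under each scaling. Calls over all analysed genes also moved by over 1.5 times, as counts or as shares. At 1.5-fold, the shares higher and lower were 14.3% and 20.2% for DKO against WT, 14.0% and 18.8% for DKO against the mean, 2.02% and 1.53% for Bmi1ΔIEC against WT, 1.19% and 2.35% for Mel18ΔIEC against WT, and 3.26% and 1.24% for Bmi1ΔIEC against Mel18ΔIEC. With log2 of the intensity plus 32, 0.319% were higher on Bmi1ΔIEC than on WT, 0.0639% higher and 0.495% lower on Mel18ΔIEC than on WT, 4.33% lower on DKO than the mean, and 0.112% lower on Bmi1ΔIEC than on Mel18ΔIEC. At a floor of 8, the share higher on Mel18ΔIEC than on WT was 0.107%, of fewer genes. With dim genes kept, DKO against WT gave 4.76% higher and 5.18% lower, since more genes were tested. No paired analysis was possible because each genotype has 1 array and the labels carry no replicate numbers. Values under 6 are close to background, which limits Il18r1.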
